A study of Mus musculus with 6 samples.

Results

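A group of 10 ion channel genes known from microglia was followed across the arrays: the potassium channels *Kcnk13*, *Kcnk6*, *Kcnn4*, *Kcna3*, *Kcnj2* and *Kcnj10*, the proton channel *Hvcn1*, the transient receptor potential (TRP) channels *Trpv2* and *Trpm2*, and the chloride intracellular channel *Clic1*. Every non-control probe whose transcript accession mapped to one of these symbols was taken, whatever it read, which gave 16 of the 56605 probes for 10 of the 23462 genes with a named, tested probe. *Kcnj10* rose 4.01-fold and *Kcna3* fell 3.17-fold in microglia without Bhlhe41, and these were the largest changes among the 10 genes. One probe each of *Trpm2* and *Clic1* rose and one of *Kcnn4* fell, while no probe of *Kcnk13*, *Kcnk6*, *Kcnj2*, *Hvcn1* or *Trpv2* passed the thresholds.

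The study asked what loss of the transcription factor Bhlhe41 changes in microglia. Microglia were sorted as live CD45lo Cx3cr1+ CD11b+ cells after enrichment on 40% Percoll from the brains of 3-month-old mice, and their total RNA was hybridised in 1 colour to 6 SurePrint G3 Mouse arrays. The 3 samples labelled Ctrl came from Bhlhe41 dTomato-Cre/+ mice, called B41HET here, and the 3 labelled KO from Bhlhe41 dTomato-Cre/dTomato-Cre mice, called B41KO. In this allele a cassette of dTomato, a 2A peptide, Cre and a polyadenylation signal sits before the start codon, so that the *Bhlhe41* promoter drives both reporters in place of the protein. All 6 samples therefore carried the cassette, the controls in 1 copy beside 1 intact allele, and no wild-type sample was compared. The allele is present in every cell of the body, so a change in these microglia need not arise within them. Each sample was a pool of 10 to 15 mice by the Methods, whereas the labels speak of 3 mice.

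Potassium channels set the resting potential of microglia and let potassium leave the cell, a step known to license the NLRP3 inflammasome. Proton channels compensate the charge that the phagocyte NADPH oxidase moves across the membrane, and TRP channels admit calcium in response to oxidants, heat or stretch. In the brain *Kcnj10* is best known from astrocytes and oligodendrocytes, where it buffers potassium, while *Kcna3* and *Kcnn4* are best known from activated microglia and T cells.

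Bhlhe41 binds the palindromic E-box CACGTG, and the promoters of the genes with the largest changes are shown with those that hold this motif. The windows come from RefSeq on GRCm38.p6, run 300 bases from 250 before to 50 after the annotated start, all lie on the plus strand, and have the E-box in capitals.
*Kcnn4*, chr7:24370013-24370312: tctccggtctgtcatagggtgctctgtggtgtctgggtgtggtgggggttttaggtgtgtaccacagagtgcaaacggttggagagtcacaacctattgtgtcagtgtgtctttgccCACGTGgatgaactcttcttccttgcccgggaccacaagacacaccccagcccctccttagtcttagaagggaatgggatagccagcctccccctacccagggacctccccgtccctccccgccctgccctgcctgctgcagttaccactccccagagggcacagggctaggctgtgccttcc
*Kcnj2*, chr11:111065914-111066213: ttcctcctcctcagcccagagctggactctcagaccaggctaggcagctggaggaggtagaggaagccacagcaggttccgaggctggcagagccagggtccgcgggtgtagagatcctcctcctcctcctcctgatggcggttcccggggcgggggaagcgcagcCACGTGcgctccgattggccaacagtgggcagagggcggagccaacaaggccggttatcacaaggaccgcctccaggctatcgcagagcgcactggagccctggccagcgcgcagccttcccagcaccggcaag
*Kcnj10*, chr1:172340960-172341259: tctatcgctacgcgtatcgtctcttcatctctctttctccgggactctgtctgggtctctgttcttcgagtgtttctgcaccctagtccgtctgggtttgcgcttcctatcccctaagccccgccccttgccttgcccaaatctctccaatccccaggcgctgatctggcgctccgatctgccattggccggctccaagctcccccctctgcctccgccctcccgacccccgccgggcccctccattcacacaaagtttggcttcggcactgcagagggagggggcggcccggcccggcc
*Kcna3*, chr3:107035912-107036211: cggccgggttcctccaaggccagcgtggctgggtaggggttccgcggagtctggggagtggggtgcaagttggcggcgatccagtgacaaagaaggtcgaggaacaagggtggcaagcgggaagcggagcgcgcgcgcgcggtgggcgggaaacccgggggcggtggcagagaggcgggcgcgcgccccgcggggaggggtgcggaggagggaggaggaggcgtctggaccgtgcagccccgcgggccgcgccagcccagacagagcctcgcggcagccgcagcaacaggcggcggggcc
The motif reads the same on both strands. It began 133 bases before the start of *Kcnn4* and 84 bases before that of *Kcnj2*. Of the 8 channel genes with a window in the table, these 2 held it, against 8.09% of all 27025 genes with one. By windows it was 2 of 10, against 7.15% of all 32851, and the windows of *Kcnj10*, *Kcna3*, *Trpv2*, *Trpm2*, *Clic1* and *Kcnk13* did not hold these letters. *Kcnk6* and *Hvcn1* had no entry. Sites outside the windows were not searched, and the site that the paper reports as bound in the *Cd22* promoter lies further upstream than they reach. GC content of the channel windows ran from 50.3% to 75% around a median of 52.7% over all windows.

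The signals are log2 intensities after quantile normalization over the 6 arrays, and genotypes were compared with limma across all 56601 tested probes with Benjamini-Hochberg adjustment. A probe was called if its adjusted p was 0.05 or less and its absolute log2 fold change 0.5 or more. Probes differ in how brightly they bind, so that levels of different genes were not compared. Where a gene had several probes, the difference between them within an array was compared between samples, over the 6 pairs of probes, in 4 genes, that were both above background. All arrays lay on 1 slide. The 3 B41HET arrays and B41KO replicate 1 lay in row 1 of it, and B41KO replicates 2 and 3 in row 2. Between 70.1% and 75.5% of probes stood well above background on an array. Log2 signals correlated at 0.989 to 0.993 within a genotype and at 0.985 to 0.989 between genotypes. Neither *Bhlhe41* probe was called, with log2 fold changes of 0.33 and 0.38 (adjusted p = 0.204 and 0.33), so the genotypes stand as labelled and were not checked by this transcript. How the cassette affects the *Bhlhe41* transcript was not tested.

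Of the 16 channel probes 5 were called, 3 higher and 2 lower in B41KO microglia. Over all probes tested 5.09% were called, 1.72% higher and 3.38% lower. All 5 were among the 15 channel probes well above background on all 6 arrays, where 6.29% of probes were called. The samples of the genotypes did not overlap for 11 of the 16 channel probes, against 29.6% of all probes. The median absolute log2 fold change was 0.41 over the channel probes and 0.19 over all probes. Taking the brightest probe of each gene, 4 of the 10 genes were called, 2 higher and 2 lower, against 5.49% of all genes, 1.44% higher and 4.05% lower. The channel genes were chosen with earlier results of these data known, so these shares do not test the group. Of the calls over all probes 33.7% were higher, and 45.8% were if arrays were instead shifted to their 75th percentile, which moved the median log2 fold change of all probes from 0.01 to 0.13.

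**Figure D1:**
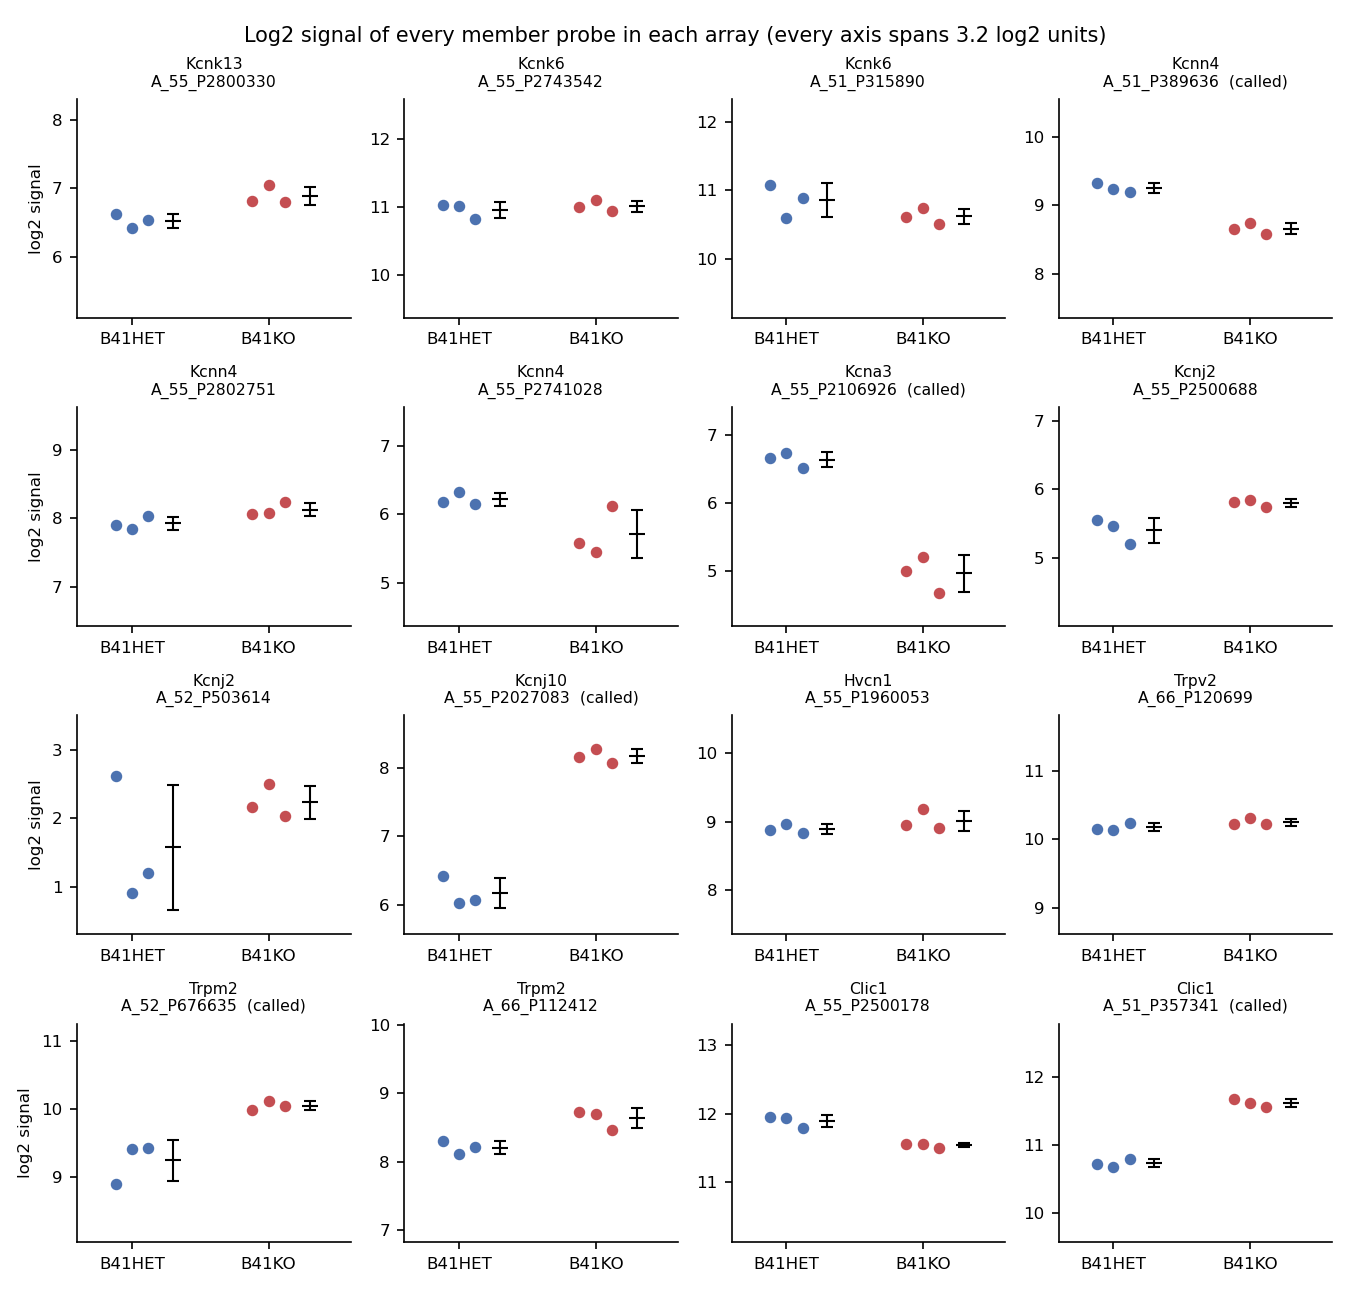
Log2 signal (vertical axis, spanning the same range of log2 units in each panel) of the 16 channel probes in the 3 B41HET and 3 B41KO samples. Points are samples, black bars are the mean ± SD of each genotype, and the samples stand widest apart for *Kcnj10* and *Kcna3*.

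*Kcnj10* encodes the inward rectifier Kir4.1, which takes up potassium near the resting potential. Its probe read 6.42, 6.02 and 6.06 in the B41HET samples and 8.16, 8.28 and 8.08 in the B41KO samples. Every B41KO sample lay above every B41HET sample, and the gap between the closest pair was 1.65 on the log2 scale. The mean rose from 6.17 ± 0.22 to 8.17 ± 0.11 (SD, n = 3 each), a log2 fold change of 2.00 (SE 0.13, 95% interval 1.68 to 2.33, limma adjusted p = 0.00312). The call held without each sample in turn, with log2 fold changes between 1.93 and 2.13. Blocking on slide row gave 1.99 (adjusted p = 0.044).

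As *Kcnj10* is abundant in astrocytes and oligodendrocytes, markers of both were read beside it. None of 10 astrocyte genes was called, and the median log2 fold change of the list was -0.0033. Its summed signal ran from 3286 to 3461 in B41HET and from 3582 to 3764 in B41KO samples, higher in each of the latter. Of the genes with the brightest probes, the water channel *Aqp4* gave 0.23 on the log2 scale (adjusted p = 0.358), *Slc1a3* by 0.18 (adjusted p = 0.383) and *Sox9* by 0.07 (adjusted p = 0.718). Of 10 oligodendrocyte genes 1 was called, lower, and the median log2 fold change of the list was -0.10. Those with the brightest probes, *Mbp*, *Cnp* and *Mog*, gave log2 fold changes of 0.27, -0.12 and -0.02 and were not called. The summed oligodendrocyte signal overlapped between genotypes, with 2026 to 2065 in B41HET and 2010 to 2322 in B41KO samples. No defining marker of either list stood at background on all arrays, and the part of these cells in the *Kcnj10* signal was not tested. In sorted cells measured in bulk, fewer cells of a type and less RNA per cell cannot be told apart.

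The profile of *Kcnj10* was set against those of 17206 genes well above background on all arrays, by the root mean square difference of mean-centred log2 signals over the 6 samples. The closest were the olfactory receptor gene *Olfr1337* (0.139), *Plaur* (0.146), which encodes the urokinase receptor, and *Olfr1330* (0.179). Their log2 fold changes were 1.95, 1.83 and 2.28, and a change of like size follows from how they were picked.

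*Kcnj2* encodes Kir2.1, the inward rectifier that holds the resting potential of microglia. Its brighter probe read 5.55, 5.46 and 5.20 in B41HET and 5.81, 5.85 and 5.74 in B41KO samples. The samples did not overlap, but the log2 fold change of 0.40 (95% interval 0.12 to 0.67) was not called (limma adjusted p = 0.102). The other probe was nowhere well above background.

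*Kcna3* encodes Kv1.3, a voltage-gated channel that restores the membrane potential of activated immune cells. It read 6.66, 6.73 and 6.51 in B41HET and 5.01, 5.21 and 4.68 in B41KO samples. All B41KO samples were lower, by 1.30 or more on the log2 scale. The mean fell from 6.63 ± 0.11 to 4.97 ± 0.27 (SD, n = 3 each), a log2 fold change of -1.67 (SE 0.15, 95% interval -2.04 to -1.29, limma adjusted p = 0.00685). The call held without each sample in turn. It was lost when slide row was a block, where the log2 fold change was -1.63 (adjusted p = 0.0733). After normexp background correction the value was -0.80 (adjusted p = 0.000134), smaller than the 0.87 of the called *Clic1* probe in that setting.

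T cells and other leukocytes carry *Kcna3* too. None of 10 T and NK cell genes was called, and their summed signal overlapped between genotypes, at 543 to 622 in B41HET and 617 to 641 in B41KO samples. The T cell receptor component *Cd3g* was nowhere well above background, and *Cd3e*, *Cd5* and *Lck* changed by 0.09, 0.30 and 0.23. Of 9 measured B cell genes *Cd79a* fell and no other was called by its brightest probe. The summed B cell signal was 4149 to 4391 in B41HET and 4568 to 4891 in B41KO samples, higher in each of the latter. This list includes *Cd22*, which the paper reports as higher in B41KO microglia, and its part in the sum was not tested. Of 10 border macrophage genes 5 fell, among them *Cd163* and *Cbr2*, and the summed signal went from 2536 to 2717 in B41HET to 1729 to 1914 in B41KO samples. Of 12 neutrophil genes 9 fell, with a median log2 fold change of -2.35 over the list and summed signals of 31519 to 35437 in B41HET and 6243 to 6672 in B41KO samples. Of 6 monocyte genes 3 fell, with a median of -1.20 and summed signals of 1383 to 1457 and 386 to 410. Whether these cells had a part in the *Kcna3* signal was not tested.

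*Kcnn4* encodes KCa3.1, which opens with cytosolic calcium and works with store-operated calcium entry. Its brightest probe read 9.33, 9.23 and 9.19 in B41HET and 8.64, 8.74 and 8.58 in B41KO samples. The samples did not overlap, and the log2 fold change of -0.59 (SE 0.08, 95% interval -0.79 to -0.40) was called (limma adjusted p = 0.0173). A second probe of the same transcript gave -0.50 without a call (adjusted p = 0.187), with B41KO replicate 3 at 6.12 near the lowest B41HET sample at 6.15, and without that replicate it was called at -0.70 (adjusted p = 0.0447). A probe designed on another transcript of the gene went the other way, at 0.20 (adjusted p = 0.263). The log2 difference between the called probe and that one was 1.43, 1.39 and 1.16 in B41HET and 0.58, 0.67 and 0.34 in B41KO samples, so that the probes changed unequally within the arrays (exact permutation test, two-sided, p = 0.1, the smallest that 3 against 3 samples allow, and 0.2 after Benjamini-Hochberg adjustment over the 6 pairs). The probes of the same transcript differed by -0.09 in their change (exact p = 0.9), and the remaining pair by 0.70 (exact p = 0.1). With 1 sample left out in turn, the log2 fold change of the called probe ran from -0.64 to -0.56. The call was kept without B41KO replicate 2 (adjusted p = 0.047) and lost without B41HET replicate 1 (0.0654), 2 (0.0755) or 3 (0.0532) or B41KO replicate 1 (0.0628) or 3 (0.0542). Blocking on slide row, which gave -0.61 (0.126), also lost it.

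**Figure D2:**
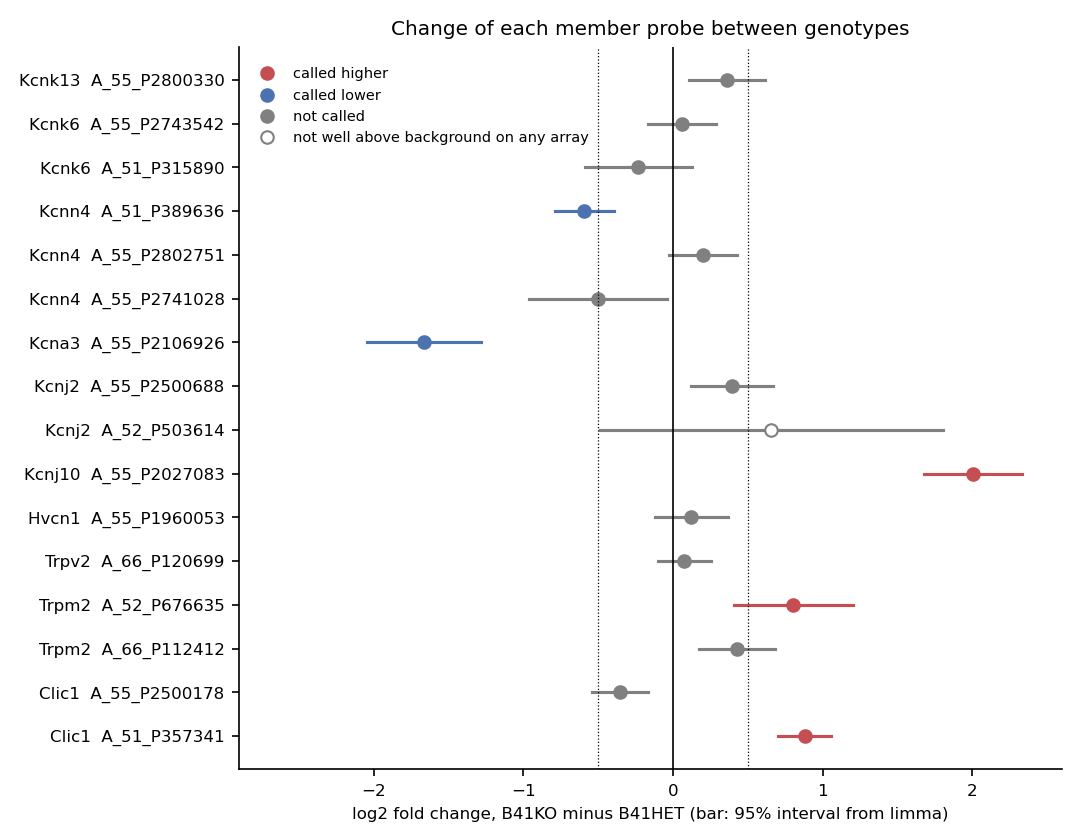
Log2 fold change of each channel probe (horizontal axis, B41KO minus B41HET) with its 95% interval from limma, coloured by call. Dotted lines mark the fold threshold, and the probes of *Clic1* and of *Kcnn4* lie on both sides of 0.

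The tandem pore-domain channels were not called. *Kcnk13*, which encodes THIK-1, the background potassium channel of surveying microglia, read 6.63, 6.42 and 6.54 in B41HET and 6.82, 7.04 and 6.80 in B41KO samples. The samples did not overlap, and the log2 fold change was 0.36 (95% interval 0.10 to 0.61, limma adjusted p = 0.107). *Kcnk6*, which encodes TWIK-2, a route of potassium loss in macrophages, gave 0.06 on one probe (95% interval -0.17 to 0.28, adjusted p = 0.768). Its other probe gave -0.23 (95% interval -0.59 to 0.13, adjusted p = 0.414), and both overlapped between genotypes. The change in the difference between these probes was 0.29 (exact permutation p = 0.3).

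*Hvcn1* encodes the voltage-gated proton channel Hv1. It read 8.88, 8.97 and 8.84 in B41HET and 8.95, 9.18 and 8.91 in B41KO samples. These overlapped, and the log2 fold change was 0.12 (95% interval -0.12 to 0.37, limma adjusted p = 0.534). *Cybb*, the catalytic subunit of the oxidase that Hv1 works with, fell by 2.08 on the log2 scale (SE 0.08, adjusted p = 0.000907), from 7.48, 7.31 and 7.36 to 5.39, 5.28 and 5.24. *Cybb* is also abundant in neutrophils, whose markers fell in the same samples, as given above for *Kcna3*. The part of neutrophil RNA in these changes was not tested.

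*Trpm2*, a calcium-permeable channel opened by ADP-ribose and oxidants, had a pair of probes, both higher in every B41KO sample. The called probe read 8.90, 9.42 and 9.42 in B41HET and 9.99, 10.12 and 10.04 in B41KO samples. Its log2 fold change was 0.80 (SE 0.16, 95% interval 0.40 to 1.20, limma adjusted p = 0.0457). The other probe gave 0.43 (95% interval 0.17 to 0.68, adjusted p = 0.0732), and the probes differed by 0.38 in their change (exact permutation p = 0.2). The call was lost without B41HET replicate 2 (adjusted p = 0.1) or 3 (0.0821) or B41KO replicate 1 (0.108), 2 (0.131) or 3 (0.119). It was kept without B41HET replicate 1, the low sample, where the change was 0.63 (adjusted p = 0.0493), and lost with the shift to the 75th percentile (0.78, adjusted p = 0.0512) and with a block for slide row (0.74, adjusted p = 0.261).

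*Trpv2*, a cation channel of phagocytes, read 10.15, 10.13 and 10.24 in B41HET and 10.22, 10.31 and 10.22 in B41KO samples. These overlapped, with a log2 fold change of 0.07 (95% interval -0.10 to 0.25, limma adjusted p = 0.608).

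*Clic1*, a soluble protein that can insert into membranes as a chloride channel, had a pair of probes that moved in opposite directions. The called probe, spotted 10 times on each array, read 10.73, 10.68 and 10.80 in B41HET and 11.67, 11.62 and 11.56 in B41KO samples. It rose by 0.88 on the log2 scale (SE 0.07, 95% interval 0.70 to 1.06, limma adjusted p = 0.00518), and the SD among its spots within an array was 0.06 to 0.12. The call held without each sample in turn and was lost with a block for slide row (0.93, adjusted p = 0.0525). The brighter probe read 11.95, 11.93 and 11.79 in B41HET and 11.56, 11.56 and 11.50 in B41KO samples, a log2 fold change of -0.35 (95% interval -0.54 to -0.17, adjusted p = 0.0539) that missed both thresholds. Both probes were designed on the same transcript. Their difference within an array went from 1.22, 1.25 and 1.00 in B41HET to -0.11, -0.06 and -0.06 in B41KO samples, a change of -1.23 with no overlap (exact permutation test, two-sided, p = 0.1, the smallest possible here, adjusted p = 0.2), so no direction is given for the gene as a whole.

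**Figure D3:**
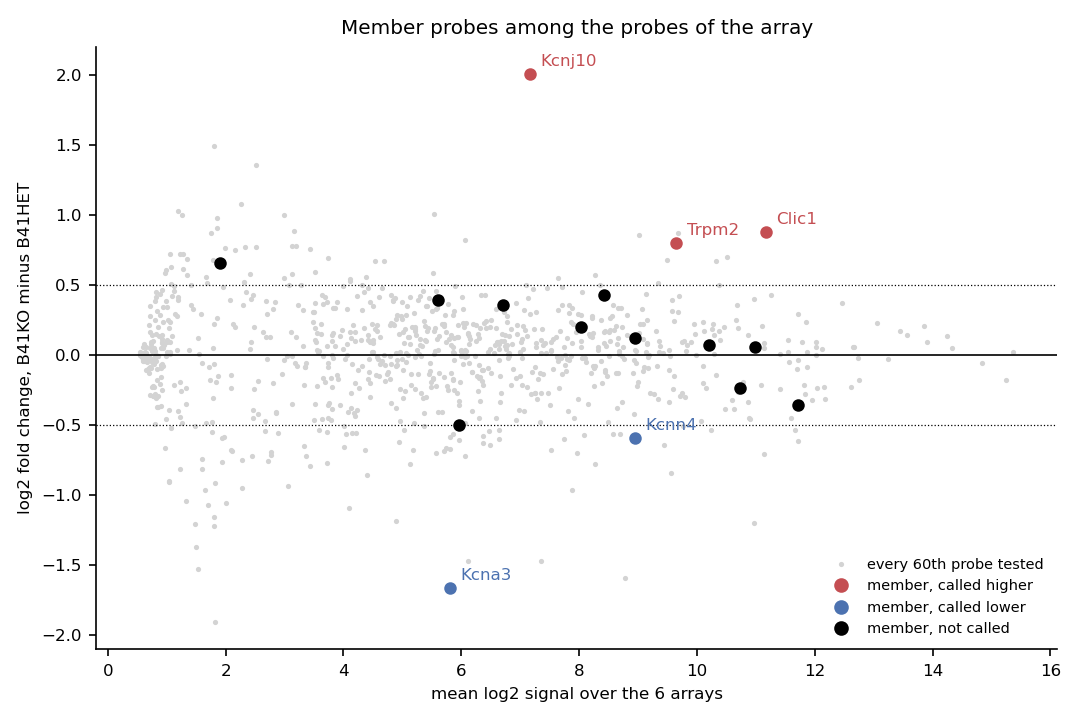
Log2 fold change (vertical axis, B41KO minus B41HET) against the mean log2 signal over the 6 samples (horizontal axis) for the 16 channel probes and, in grey, every 60th probe tested. *Kcnj10* and *Kcna3* lie outside most of the grey probes of like signal, and dotted lines mark the fold threshold.

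Genes of the same channel families and of processes that work with these channels were read by their brightest probe. Of 195 listed 194 were measured, and 7 of them (3.61%) were called, 1 higher and 6 lower, against 5.49% of all genes. Their median absolute log2 fold change was 0.16, and that of all genes 0.19. *Kcnj9*, which encodes the inward rectifier subunit Kir3.3, rose by 0.57 (limma adjusted p = 0.0218). It read 6.99, 7.02 and 6.99 in B41HET and 7.55, 7.69 and 7.46 in B41KO samples. Among 12 other tandem pore-domain genes *Kcnk12*, a relative of *Kcnk13*, fell by 0.63 (adjusted p = 0.0242). Among 39 other voltage-gated genes *Kcnd1*, an A-type channel subunit, fell by 0.76 (adjusted p = 0.0075), and among 7 other calcium- or sodium-activated genes *Kcnn3* fell by 0.76 (adjusted p = 0.047). *Trpv4*, which responds to osmotic swelling, was the called gene among 25 other TRP genes and fell by 0.50 (adjusted p = 0.0224). *Slc12a7*, a potassium-chloride cotransporter, fell by 0.96 (adjusted p = 0.00505) and was the called gene among 13 of potassium uptake and the sodium pump. *Cybb* was the called gene among 8 of the NADPH oxidase.

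No gene was called among 15 auxiliary potassium channel subunits, 27 other CLIC and chloride channel genes, 13 other proton channel and sodium-proton exchanger genes, 10 of potassium efflux and the inflammasome, 4 purinergic genes and 8 of store-operated calcium entry. The brightest probes of 3 of these lists gave -0.05 for *Gsdmd*, which encodes the pore of pyroptosis, -0.23 for *Entpd1*, an ectonucleotidase, and -0.06 for the calcium channel gene *Orai1* (limma adjusted p = 0.836, 0.463 and 0.737). For *Kcnip3*, which encodes a calcium-binding partner of potassium channels, the value was 0.08 (adjusted p = 0.639). A gene could miss a call by the fold threshold alone, and without it 13 related genes were called. The median log2 fold change of the potassium efflux and inflammasome list was 0.02. Its summed signal was 17640 to 18927 in B41HET and 15801 to 17233 in B41KO samples.

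**Figure D4:**
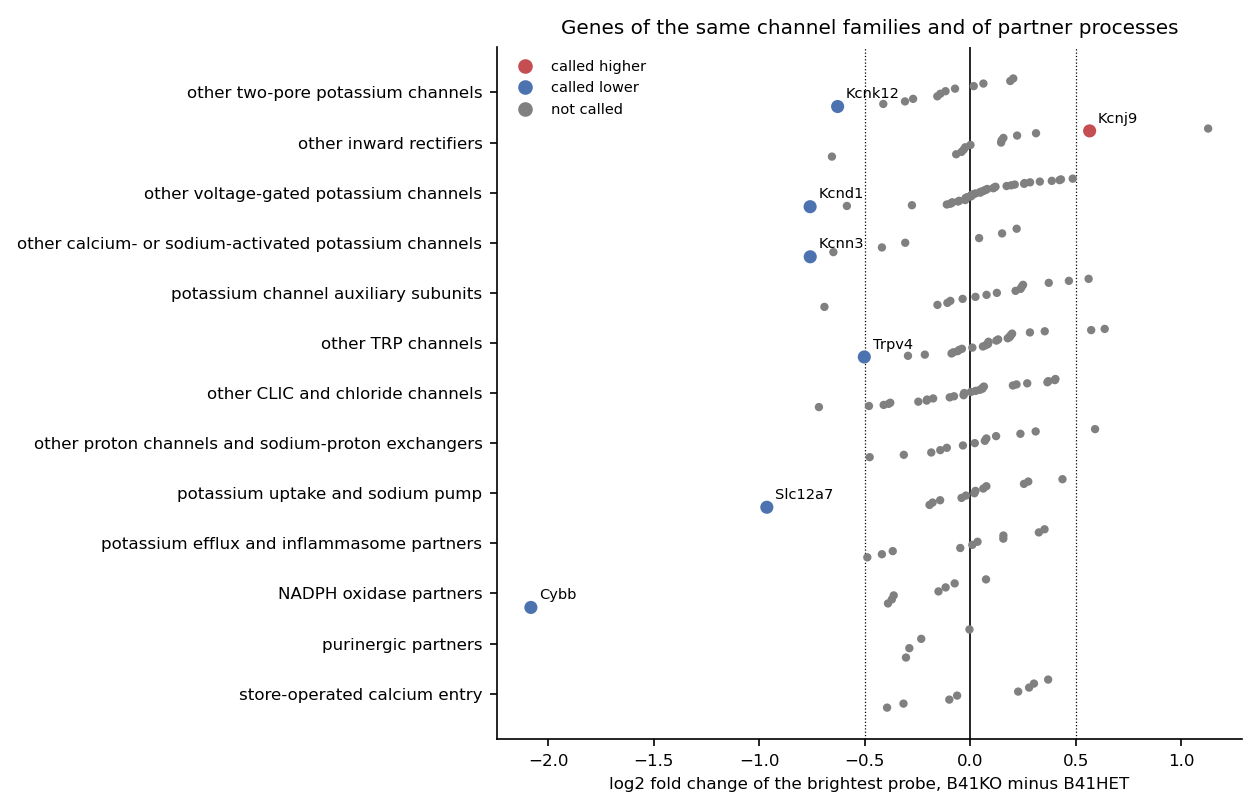
Log2 fold change (horizontal axis, B41KO minus B41HET, brightest probe) of the 194 related genes, a point each, grouped by list. Coloured points are the 7 called genes, 1 higher and 6 lower, and dotted lines mark the fold threshold.

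Microglial identity genes stood well above background in all samples. Of 10, including *Tmem119* and *P2ry12*, *Fcrls* fell by 0.76 and no other was called, and their summed signal was 157919 to 173100 in B41HET and 152091 to 161646 in B41KO samples. Of 12 genes of ex vivo activation 5 fell, *Atf3* by 1.28 and *Dusp1* by 1.11, with summed signals of 102842 to 109790 and 76815 to 78885. Endothelial genes fell in 2 of 10 cases, while 2 of 8 erythroid and platelet genes rose and none of 10 neuron genes was called. The summed signals of the microglial and neuron lists overlapped between genotypes. Those of the ex vivo activation, neutrophil, monocyte, border macrophage, endothelial, astrocyte, B cell, and erythroid and platelet lists did not, as for the 5 called channel probes. Their part in those calls was not tested.

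**Figure D5:**
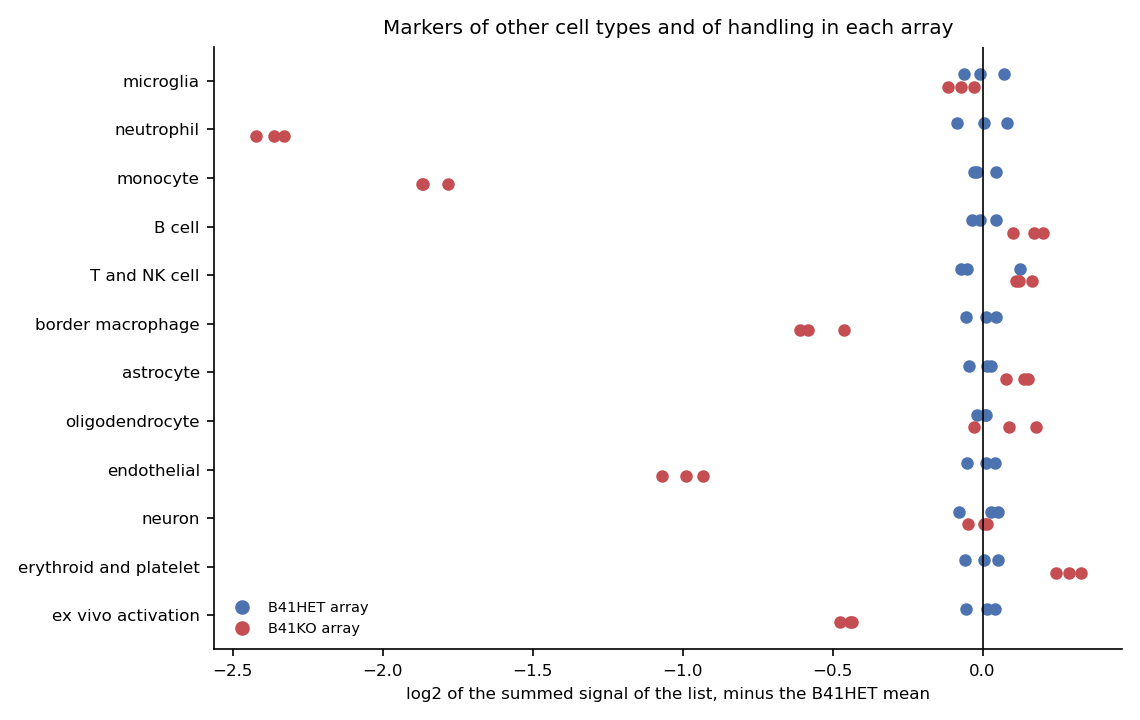
Log2 of the summed linear signal of each marker list in each sample, minus the B41HET mean (horizontal axis), for cell types and for ex vivo activation. The neutrophil, monocyte, endothelial, border macrophage and ex vivo activation lists were lower in all 3 B41KO samples than in any B41HET sample, and the astrocyte, B cell, and erythroid and platelet lists were higher.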

How the data were processed

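Per the file headers, the intensity values were extracted by the authors with Agilent Feature Extraction 11.5.1.1, background-subtracted within each array and not normalized between arrays. The authors also deposited log2 values for all arrays, which had equal column medians (5.10) and ranked probes as the scanner files did (Spearman 0.999999 to 1), and the Methods state quantile normalization. They served as an alternative.

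From the scanner files, log2 processed intensities of 59305 non-control spots per array were quantile normalized, flagged outlier spots (95 to 136 on an array) were dropped, and spots of a probe were averaged. Probes with a value in at least 2 samples of each genotype were tested with limma 3.58.1 in R 4.3.3 (with data.table, version 1.17.8), with genotype as the term and Benjamini-Hochberg adjustment over 56601 probes. Quantile normalization, limma and the thresholds follow the study's Methods. The accessions of 33767 probes (59.7%) matched a RefSeq gene table (GRCm38.p6), and the other probes stayed unnamed. The brightest probe, by mean over all samples, stood for a gene in lists. Differences between the probes of a gene were compared with exact permutation tests. Python 3.11.15 with matplotlib 3.10.9 drew the figures.

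Named were all 10 channel genes, up to 4 called genes of a related list by size of change, the gene with the brightest probe of a list with none called, leading markers, *Bhlhe41*, and the 3 genes most like *Kcnj10*. Some genes that this rule names are not reported here. Other markers named were chosen after their values were seen. The channel genes and lists were chosen with earlier results of these data known. Each sample was taken as 1 replicate, p-values measure the spread between these pools, and the number of arrays limits the precision. *Trpc2* and *Ighm* matched no probe. Alternatives were the 75th percentile shift, the deposited log2 values, normexp correction with an offset of 50, a filter that kept probes detected on 3 or more arrays, flagged outlier spots retained, trend and robust variance, a block by replicate number or slide row, each sample left out, other fold thresholds, and other choices of probe per gene.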

Additional observations from a re-analysis of the deposited data

How the results depend on the processing

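The 5 called channel probes had 70 values under the alternatives, and 20 of these lost the call, none with a change of sign. The 11 others had 153, of which 1 gained a call, as given for *Kcnn4*, and 1 changed sign. *Kcnj10* was called in all but the fit with the replicate block (adjusted p = 0.0616). With each sample left out in turn, 3 to 4 channel probes, 2 to 3 channel genes, 3 to 6 related genes and 20 to 24 marker genes were called, against 5, 4, 7 and 29 with all samples. Over all probes 796 to 1524 were called in these fits, against 2883, and the cause beyond fewer samples was not tested. Without B41HET replicate 3, *Kcnk6* on one probe turned from 0.06 to -0.0092, both within their error, and its other values with a sample left out reached 0.094. With the slide row as a block, 1 channel probe, 1 channel gene, 1 related gene and 15 marker genes were called, and 448 probes in all against 2883. A threshold of 1 on the absolute log2 fold change left 2 channel probes, 2 channel genes and 1 related gene. With no fold threshold, or with the probe of lowest p for each gene, 13 related genes were called. Over all probes, normexp correction left 1501 calls. The cause of these differences was not tested.

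Same-numbered samples deviated from their genotype means with correlations of 0.0276, 0.0136 and 0.0477. For samples of different numbers these ran from -0.0505 to 0.028. Whether the replicate numbers pair the samples was not tested further. With the replicate block 0 channel probes, 0 channel genes, 1 related gene and 7 marker genes were called by limma, and 42 probes in all. In that fit 10 of the 16 channel probes had an unadjusted p under 0.05, against 22.4% of all probes, and without the block it was also 10, against 23% of all probes.

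Probes below background, such as one of *Kcnj2*, carry no measured level. Slide row 2 held only B41KO samples.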

Other observations

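The neighbours of the genes with a called probe were read, 3 protein-coding genes on each side by position in the RefSeq table, a rule chosen after the channel values were seen. Of the 6 neighbours of *Kcnj10*, *Igsf8* and *Kcnj9* were called higher, by 0.82 and 0.57 on the log2 scale (limma adjusted p = 0.0107 and 0.0218), and *Pigm* gave 0.70 without a call. Of the 6 neighbours of *Kcnn4*, *Plaur* and *Irgc1* were called higher, by 1.83 and 0.90, while *Kcnn4* itself was called lower on one probe. *Plaur* was also among the genes most like *Kcnj10* over the 6 samples, by a measure that picks genes with a change of like size. Of the 6 neighbours of *Clic1*, *Msh5*, *Sapcd1* and *Vwa7*, which lie together on one side of it, were called lower, by -0.80, -0.95 and -0.72. None of the 6 neighbours of *Kcna3* was called, with *Kcna2* at 0.26 and *Kcna10* at 0.02, and none of the 6 neighbours of *Trpm2*. Over all genes 5.49% were called.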
